A study of Mus musculus with 56 samples.

Results

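Adrenal glands of female mice that lack Znrf3 in steroidogenic cells were compared at 12 and at 9 weeks of age, to describe how the knockout gland itself differs between these ages. Of the 56 samples of the study, 8 make up this comparison: 4 glands at 12 weeks and 4 at 9 weeks, taken by genotype, sex and age from the sample labels. All 8 animals were C57BL/6J and carried SF1-Cre with both Znrf3 alleles floxed (SF1-Cre+; Znrf3 Fx/Fx), which is the conditional knockout (cKO). SF1-Cre is a Cre transgene under control of the gene for steroidogenic factor 1 and acts in cells of the adrenal cortex, so immune, endothelial and medullary cells of these glands should keep Znrf3. As a background for age, 8 female littermates without SF1-Cre (4 at 9 and 4 at 12 weeks) were compared in the same way, and 4 cKO females at 6 weeks give the earlier interval. Each library came from a different mouse and a whole gland, cleaned of fat. Male animals of the study were not used here.

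ZNRF3 is a membrane ubiquitin ligase that removes Frizzled receptors from the cell surface and thereby dampens Wnt signalling, which R-spondins and LGR receptors relieve. In the adrenal cortex Wnt signalling is strongest in the outer zona glomerulosa, where aldosterone is made, and weak in the zona fasciculata, where glucocorticoids are made. Female mice also keep an inner X-zone of fetal origin that shrinks with age. The study asked what accompanies the turn from an enlarged to a regressing adrenal in these animals.

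The libraries held 37689692 to 41697061 counted reads at 9 weeks and 37482976 to 43951533 at 12 weeks, and mitochondrially encoded genes took 3.03% to 4.71% and 3.95% to 4.65% of them. Levels are given as CPM, which are counts set to a common library total and scaled by TMM factors, and differences as log2 fold changes of 12 over 9 weeks with a 95% interval. The whole-gene count of Znrf3 (ENSMUSG00000041961, GRCm38 chromosome 11, positions 5276324 to 5444847) cannot show the loss of a floxed segment, so it does not check the genotype. It was 68, 67.1, 85.6 and 76.9 CPM in the cKO glands at 9 weeks, 73.1, 64.7, 85.4 and 76.6 CPM at 12 weeks, and 35.8 ± 3.21 CPM (SD, n = 4) in controls at 9 weeks. The cKO glands of both ages therefore overlapped fully (log2 fold change 0.01, 95% interval -0.26 to 0.28). The steroidogenic regulator Nr5a1, which encodes steroidogenic factor 1, was at 1630 to 2020 CPM at 9 weeks and 1720 to 2000 CPM at 12 weeks.

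A pair of libraries stood apart and touch many values that follow. On the first principal component of the 8 cKO libraries (24.4% of the variance), replicate 3 at 9 weeks lay at -43.9 and replicate 2 at 12 weeks at 53.8, with the other 6 between -19.2 and 9.1. Replicate 2 at 12 weeks held liver transcripts: the 12 liver genes summed to 463 CPM in it and to 29.1 CPM or less in the other 7 cKO glands. Albumin (Alb) alone was at 293 CPM there and at 0.0268, 0.0749 and 10.5 CPM in the other 12-week glands. The brown fat gene Ucp1 was at 6.13 CPM in the same gland and at no more than 0.241 CPM in the other 7. Replicate 3 at 9 weeks had the lowest macrophage genes and the highest cholesterol synthesis genes of its age. The counts of the main gene lists are given with and without these libraries.

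No gene passed an adjusted p under 0.05 between 12 and 9 weeks in edgeR's quasi-likelihood test (0 of 18645 genes tested, 0%). The smallest adjusted p was 0.0517, and 1871 genes had an unadjusted p under 0.05, of which 1131 were higher (6.07%) and 740 lower (3.97%) at 12 weeks. DESeq2, run as an alternative on the same genes, called 64 (0.343%), 46 higher (0.247%) and 18 lower (0.0965%) at 12 weeks. In littermate controls over the same ages edgeR also called 0 genes, with 1297 (6.96%) at an unadjusted p under 0.05, and DESeq2 called 31 (0.166%). The data do place bounds: for 14636 genes (78.5%) the 95% interval of the cKO difference lay inside a 2-fold change either way, and for 11085 (59.5%) inside 1.5-fold. In the earlier interval, from 6 to 9 weeks, the same test called 327 genes in the cKO (1.75%; 149 higher, 0.799%, and 178 lower, 0.955%), a count that was 57 without replicate 3 at 6 weeks, 67 without replicate 4 at 9 weeks, 103 without replicate 2 at 9 weeks and 196 without replicate 4 at 6 weeks. It was 20 when only the groups compared entered the fit and 718 with DESeq2. Both intervals share the 9-week glands, and whether they differ in size was not tested. Calls from 6 to 9 weeks that are named below are from the main fit. Whether those genes and list members stayed called under the alternatives was not checked. Since the main test called no gene between 12 and 9 weeks, the genes below are described by their values.

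**Figure D1:**
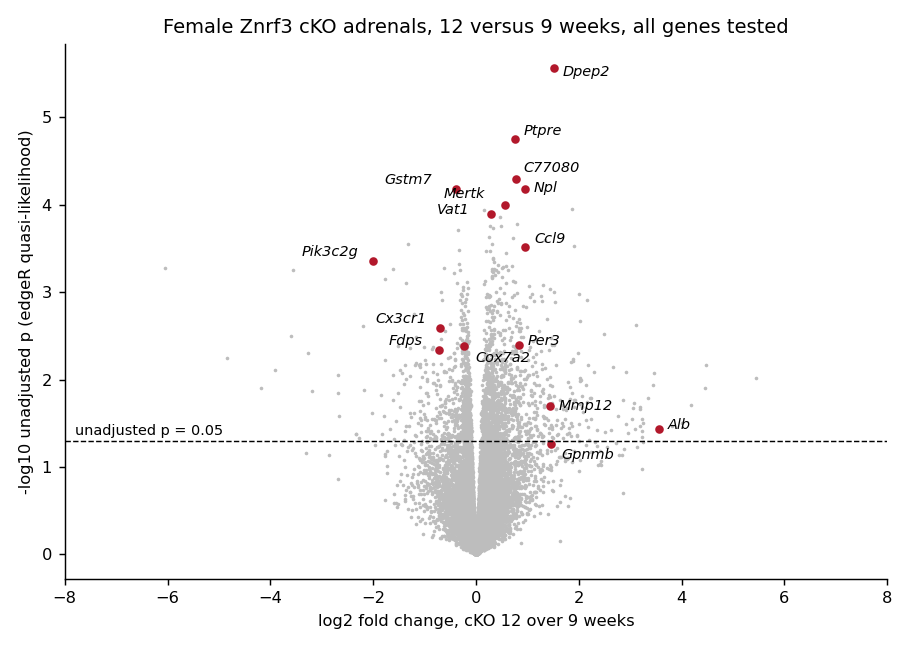
Each grey point is 1 of 18645 genes, with the log2 fold change of cKO glands at 12 over 9 weeks on the x axis and -log10 of the unadjusted edgeR p on the y axis; the dashed line marks an unadjusted p of 0.05. The red points are genes named in the text, with Dpep2 at the top (adjusted p = 0.0517).

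The genes with the smallest p were mostly higher at 12 weeks. Dpep2 (ENSMUSG00000053687), a membrane dipeptidase that cleaves leukotrienes, was at 0.708, 0.502, 0.402 and 0.651 CPM at 9 weeks. At 12 weeks it was at 1.45, 2.04, 1.32 and 1.69 CPM, above every 9-week gland (2.86-fold; log2 fold change 1.52, 95% interval 1.01 to 2.02). In controls Dpep2 went from 1.04 ± 0.197 to 1.63 ± 0.206 CPM, a log2 fold change of 0.65, and the difference between the genotypes had an adjusted p of 0.449 in edgeR's test. DESeq2 gave Dpep2 an adjusted p of 0.000119.

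Ptpre, a receptor-type tyrosine phosphatase, was at 4.75 to 6.4 CPM at 9 weeks and 8.06 to 11 CPM at 12 weeks (log2 fold change 0.76, 95% interval 0.47 to 1.05; adjusted p = 0.165 in edgeR and 0.000423 in DESeq2). Npl, which degrades sialic acid, was at 1.03 to 1.3 CPM and then at 1.85 to 2.5 CPM (0.94, 0.55 to 1.34), while controls stood at 1.36 ± 0.201 and 1.18 ± 0.257 CPM. Neither gene's ages overlapped in the cKO. The creatine transporter Slc6a8 (0.34, 0.19 to 0.49), the vesicle amine transport protein Vat1 (0.29, 0.16 to 0.42), the V-ATPase subunit Atp6v1c1 (0.16, 0.09 to 0.24) and C77080 (0.78, 0.46 to 1.11) also had higher values, by less than 2-fold each. The glutathione transferase Gstm7 had lower values, at 85.7 to 109 CPM and then at 69.4 to 81.7 CPM (-0.38, -0.55 to -0.22). Pik3c2g, described with the X-zone below, was also lower (-1.99, adjusted p = 0.225 in edgeR). The uncharacterised 1700025G04Rik had the smallest p for a difference between genotypes (adjusted p = 0.15 in edgeR): its cKO value was higher at 12 weeks by 0.46 on the log2 scale and its control value differed by -0.35. DESeq2 called 59 genes (0.316%) for that difference between genotypes, where edgeR called 0 and had 1664 (8.92%) at an unadjusted p under 0.05.

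Genes of lipid-laden macrophages had higher values in 12-week than in 9-week glands. Such cells take up lipid and dying cells and express Trem2, Gpnmb and lysosomal enzymes. Of the 17 genes on this list 0 were called by edgeR, 15 had a log2 fold change above 0 and 12 had an unadjusted p under 0.05, all higher, against 6.07% of all genes; the median was 0.84 against 0.009 over all genes. In 7 of the 17 every 12-week gland lay above every 9-week gland, which held for 2.76% of all genes. In controls the list's median was 0.46 and 2 of 17 were higher at an unadjusted p under 0.05, against 4.22% of all genes there. For the difference between genotypes 0 of 17 were higher and 1 was lower at that p, against 4.70% and 4.23% of all genes. The cKO count of 12 at an unadjusted p under 0.05 depended on single animals: it was 3 of 17 without replicate 3 at 9 weeks, 2 without replicate 2 at 12 weeks, 7 without replicate 4 at 9 weeks and 0 with the former 2 libraries both left out.

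Gpnmb, a transmembrane glycoprotein of lipid-loaded macrophages, was at 134, 121, 13.4 and 101 CPM at 9 weeks and at 157, 436, 173 and 243 CPM at 12 weeks. The ages did not overlap, but replicate 3 at 9 weeks lay far below its group and replicate 2 at 12 weeks far above, and the interval included 0 (1.45, -0.03 to 2.94). Controls were at 3.51 ± 1.79 and 8.58 ± 6.59 CPM. Mmp12, the macrophage elastase, was at 79.1, 88.4, 17.3 and 69.7 CPM and then at 89.6, 265, 138 and 195 CPM (1.44, 0.25 to 2.63; adjusted p = 0.403 in edgeR). The same libraries were the lowest and the highest for it.

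Trem2, a lipid-sensing receptor, was at 21.7, 19.5, 7.58 and 14 CPM and then at 18.9, 41.4, 18.8 and 29 CPM, so the ages overlapped. The integrin Itgax (CD11c) was at 4.93 to 13.9 CPM and then at 15.7 to 30 CPM (0.98, 0.26 to 1.70). Osteopontin (Spp1), a secreted matrix protein, was at 6.08 to 9.85 CPM and then at 13.6 to 33.1 CPM (1.22, 0.30 to 2.15). Spp1, Itgax and the lysosomal protease Ctsd (576 to 758 and then 767 to 1050 CPM) did not overlap between ages, while lipoprotein lipase (Lpl, 48 to 79.4 and 76.6 to 141 CPM) did. The macrophage marker Cd68 was at 52.4, 46.4, 21.5 and 34.6 CPM and then at 44, 96.1, 67 and 66.6 CPM (0.82, 0.08 to 1.56; adjusted p = 0.436). In bulk tissue, more macrophages and more RNA of these genes per macrophage cannot be told apart.

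General markers of macrophages and monocytes were less uniform. Of 24 genes 3 were higher and 1 lower at an unadjusted p under 0.05, against 6.07% and 3.97% of all genes. Their median was 0.20. Without both libraries that stood apart 1 was higher and 1 lower. In controls 7 were higher, against 4.22% of all genes there, and the median was 0.35. The control count was 1 without replicate 4 at 9 weeks or replicate 4 at 12 weeks and 2 without replicate 2 at 12 weeks. Mertk, a receptor through which macrophages engulf dying cells, was the clearest member at 21.5, 21.7, 16.7 and 23.7 CPM and then 32.8, 32.4, 28.7 and 29 CPM. All 12-week glands lay above all 9-week glands (0.56, 0.31 to 0.80; adjusted p = 0.225 in edgeR and 0.0191 in DESeq2), while controls stood at 22.8 ± 2.98 and 19.9 ± 2.66 CPM. Lysozyme (Lyz2) was at 149 to 354 CPM and then at 361 to 625 CPM (0.75, 0.14 to 1.35). The fractalkine receptor Cx3cr1, found on patrolling monocytes and on some resident macrophages, went the other way, at 28.3 to 38.3 CPM and then at 15.4 to 26.3 CPM (-0.70, -1.12 to -0.27). The macrophage growth factor Csf1, at 45.1 to 61.5 CPM and then 35.4 to 46 CPM, also had lower values (-0.37, -0.65 to -0.09), and both genes had higher values at 12 weeks in controls (0.31 and 0.24).

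**Figure D2:**
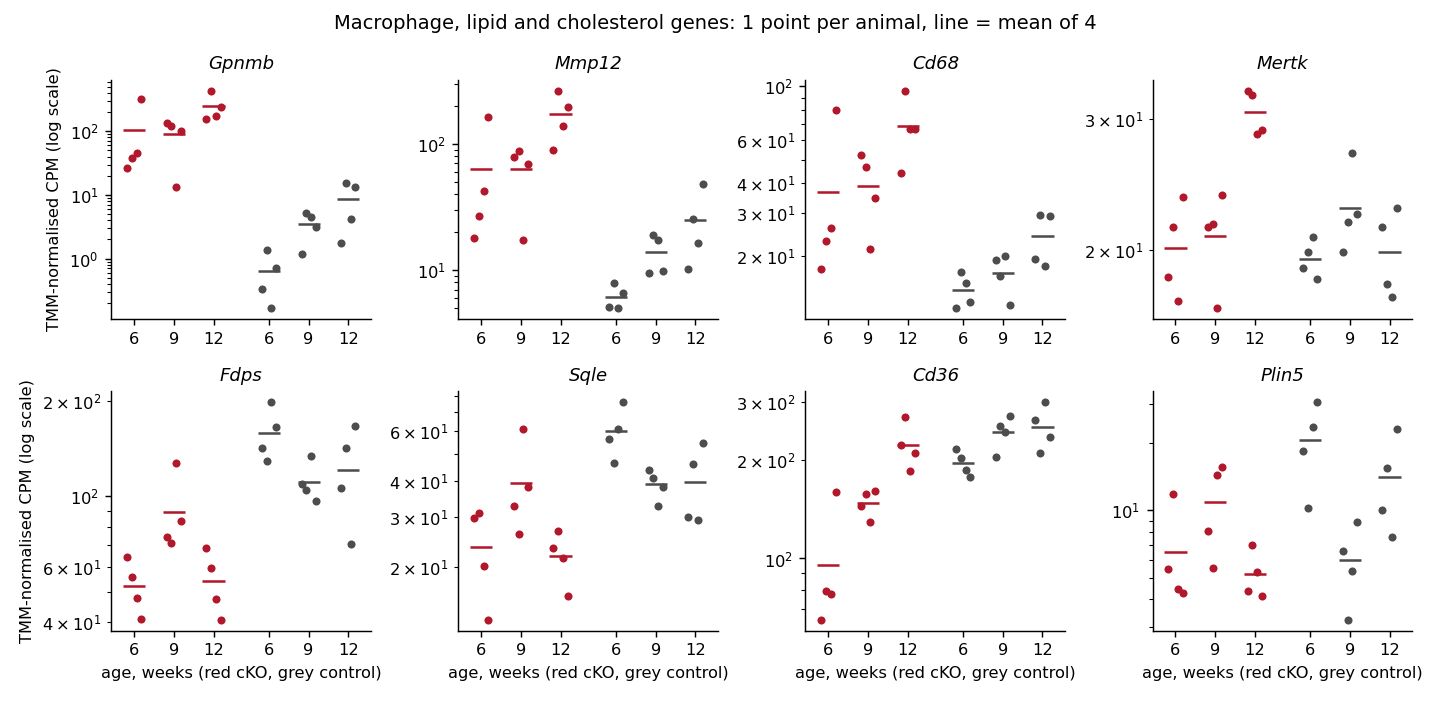
TMM-normalised CPM on a log axis for 8 genes by age in weeks; each point is 1 animal, red for cKO and grey for control, and lines are means of 4. Gpnmb and Mmp12 in the cKO hold a single low animal at 9 weeks (13.4 and 17.3 CPM), while all 4 Mertk values at 12 weeks lie above all 4 at 9 weeks.

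Chemokines and other immune genes were mixed. Of 17 chemokine genes 3 were higher at an unadjusted p under 0.05, against 6.07% of all genes, and 1 was without both libraries that stood apart. In controls 6 were higher, against 4.22% of all genes there, or 2 without replicate 4 at 12 weeks. Ccl9, a monocyte-attracting chemokine, was at 3.49, 4.54, 3.08 and 4.21 CPM and then at 3.7, 8.33, 8.74 and 9.06 CPM. A single 12-week gland, replicate 1, stayed among the 9-week values. Without it edgeR called Ccl9 (log2 fold change 1.18, adjusted p = 0.0298), the one gene called in that setting; with it the value was 0.96 (0.50 to 1.43; adjusted p = 0.225, 0.0256 in DESeq2). Ccl6, a related chemokine, was at 5.14 to 7.24 CPM and then at 8.27 to 14.8 CPM (0.79, 0.23 to 1.35) and was at 4.15 ± 0.815 and 4 ± 1.86 CPM in controls. The cytokine Il1a stood at 0.134 to 0.733 CPM and 0.669 to 1.63 CPM.

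Lymphocyte genes had few members with a low p in the cKO. Of 18 T and NK cell genes 1 was higher at an unadjusted p under 0.05 (median 0.02), against 6.07% of all genes. In controls their median was 0.50 and 6 were higher, against 4.22%, or 3 without replicate 4 at 12 weeks. The difference between genotypes was lower for 4 of the 18, against 4.23%, a count that was 2 without replicate 1 or 2 at 9 weeks of the cKO. The cKO member was the interleukin-7 receptor Il7r, at 4.86, 5.02, 1.39 and 5.29 CPM and then at 6.13, 12.9, 10.5 and 11.1 CPM. Of 11 B and plasma cell genes 1 was higher at an unadjusted p under 0.05, against 6.07% of all genes. That count was 0 without replicate 3 at 9 weeks, 2 without replicate 2 at 12 weeks and 0 without both. The member was the kappa light chain Igkc, at 13 to 23.9 CPM and then at 21.7 to 48.7 CPM. Igkc had passed the test in the earlier interval (9 over 6 weeks 2.02, adjusted p = 0.0131 in edgeR). Interferon-stimulated genes were below 0 in 16 of 18 with a median of -0.25 in the cKO, none at an unadjusted p under 0.05. In controls their median was 0.45 and 6 were higher at that p, against 4.22% of all genes there. Leaving out 1 control gland at a time gave 1 (without replicate 1 at 12 weeks), 2 (without replicate 2 at 9 weeks) and 3 (without replicate 4 at 9 weeks or replicate 2 at 12 weeks) to 8 of these. The difference between genotypes had an unadjusted p under 0.05 for 7 of the 18, all lower in the cKO, against 4.23% of all genes. Leaving out 1 library at a time gave 3 (without cKO replicate 1 at 12 weeks) to 14 (without cKO replicate 4 at 12 weeks). Oasl2, an antiviral gene, differed between genotypes by -0.81 (-1.61 to -0.01). Antigen presentation and dendritic cell genes had a median of -0.17 in the cKO, where 10 of 15 lay below 0. There 1 was higher at an unadjusted p under 0.05, against 6.07% of all genes. In controls their median was 0.57 and 7 were higher, against 4.22% of all genes there. The difference between genotypes was lower for 7 of the 15 at that p, against 4.23% of all genes. These control and difference counts rested on control replicate 4 at 12 weeks, without which they were 0 and 1. The difference count was also 3 without cKO replicate 1 at 12 weeks and 4 without control replicate 1 at 9 weeks, and the control count was 2 without the latter. The member H2-DMa differed between genotypes by -0.83 (-1.39 to -0.28).

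Cholesterol synthesis genes had lower values at 12 weeks. Cholesterol is the substrate of all adrenal steroids, made in the gland from mevalonate or taken up from lipoproteins. Of 21 genes 0 were called by edgeR, 19 had a log2 fold change below 0 (median -0.27) and 10 had an unadjusted p under 0.05, all lower, against 3.97% of all genes. In 3 of the 21 the ages did not overlap (2.77% of all genes). The 10 became 6 without replicate 3 at 9 weeks and 4 with replicate 2 at 12 weeks left out as well. In controls the median was 0 and no member was at an unadjusted p under 0.05, and for 7 of the 21 the difference between genotypes was lower at an unadjusted p under 0.05, against 4.23% of all genes. That count was 1 without cKO replicate 3 at 9 weeks. It was 4 without control replicate 3 at 9 weeks, control replicate 2 or 4 at 12 weeks or cKO replicate 4 at 12 weeks.

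Fdps, which makes farnesyl pyrophosphate, was at 74.5, 71.3, 127 and 83.7 CPM and then at 68.4, 59.3, 47.3 and 40.7 CPM. All 12-week glands lay below all 9-week glands, by 1.65-fold in the fit (-0.72, -1.20 to -0.25; adjusted p = 0.328 in edgeR). Squalene epoxidase (Sqle) was at 32.7, 26.1, 61.2 and 38.1 CPM and then at 23.3, 26.8, 21.5 and 15.8 CPM (-0.85, -1.42 to -0.30). Squalene synthase (Fdft1) stood at 75.2 to 128 CPM and 58 to 80 CPM, and mevalonate diphosphate decarboxylase (Mvd) at 14.2 to 23.1 CPM and 9.6 to 14.8 CPM. Replicate 3 at 9 weeks had the highest value of its age for each of Fdps, Sqle, Fdft1 and Mvd, and the lowest for Gpnmb and Mmp12. Mvd had passed the test upward from 6 to 9 weeks (0.70, adjusted p = 0.0451). That call and the lower values at 12 weeks share the 9-week glands, so they are not independent.

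Genes of lipid droplets and fatty acid use had values in both directions. Of 16 genes 2 were higher and 2 lower at an unadjusted p under 0.05 (0 and 2 without both libraries that stood apart). Over all genes the shares were 6.07% higher and 3.97% lower. The fatty acid transporter Cd36 was at 129 to 161 CPM and then at 185 to 269 CPM, with no overlap (0.58, 0.19 to 0.98; adjusted p = 0.345), and controls were at 243 ± 28.6 and 251 ± 38.8 CPM. The droplet protein Plin5 was at 5.54 to 15.6 CPM and then at 4.13 to 7 CPM (-1.07, -1.93 to -0.20), while controls had 6.02 ± 2.36 and 14.1 ± 6.91 CPM. The difference between genotypes was -2.29 for Plin5 (-3.51 to -1.07; adjusted p = 0.273) and -0.95 for Plin1, another droplet coat protein (-1.69 to -0.21). Plin1 is also high in fat cells, and the 11 adipose genes summed to 160 to 240 CPM at 9 weeks and 96.7 to 312 CPM at 12 weeks in the cKO. In controls they summed to 113 to 158 CPM at 9 weeks and 118 to 358 CPM at 12 weeks, the highest in replicate 4. The part of fat in the Plin1 and Plin5 values was not tested.

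**Figure D3:**
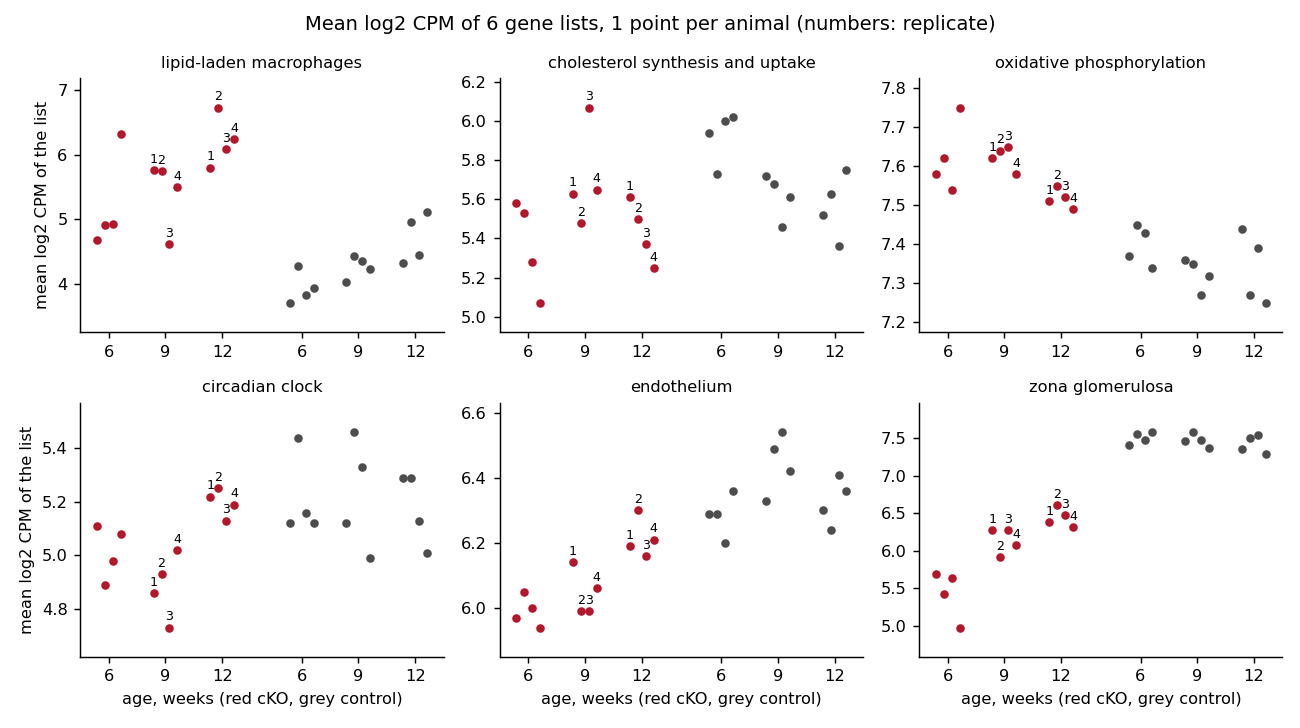
Mean log2 CPM of 6 gene lists in each animal by age in weeks, red for cKO with replicate numbers at 9 and 12 weeks and grey for control. Replicate 3 at 9 weeks is lowest for lipid-laden macrophages (4.61) and highest for cholesterol synthesis (6.07), and replicate 2 at 12 weeks is highest for lipid-laden macrophages (6.73).

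Among steroidogenic genes, Star and Cyp11b1 had higher values at 12 weeks. Of 16 genes of steroid synthesis and the zona fasciculata, 2 were higher and 0 lower at an unadjusted p under 0.05 (median 0.02). Over all genes these shares were 6.07% and 3.97%. Without replicate 1 at 9 weeks or replicate 1 or 3 at 12 weeks 0 of the 16 were higher. Star, which carries cholesterol into mitochondria, was at 6000, 7440, 6910 and 7720 CPM at 9 weeks and 9990, 8610, 10200 and 10100 CPM at 12 weeks. The ages did not overlap (0.47, 0.05 to 0.88; adjusted p = 0.424), and controls were at 12500 ± 2510 and 10600 ± 3160 CPM. Cyp11b1, the last enzyme of corticosterone synthesis, was at 7610, 8950, 9390 and 8930 CPM and then at 11400, 10200, 11500 and 9850 CPM (0.30, 0.03 to 0.57; adjusted p = 0.435). It shares sequence with Cyp11b2, and the sources used here do not say how reads were split between them. Cyp11a1, which starts steroid synthesis, differed by 0.01 (-0.21 to 0.22) and Cyp21a1, the 21-hydroxylase, by 0.09 (-0.18 to 0.36), so that changes of either beyond 1.5-fold lay outside the intervals. Mrap, the helper protein of the ACTH receptor, differed by -0.34 in the cKO and 0.52 in controls (difference -0.87, -1.54 to -0.20; adjusted p = 0.43).

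Zona glomerulosa genes had somewhat higher values at 12 weeks: all 10 lay above 0, with a median of 0.26, and 4 had an unadjusted p under 0.05, against 6.07% of all genes. Only 2 of the 10 did so without replicate 4 at 9 weeks or without the 2 libraries that stood apart. The potassium channel Kcnk9 (TASK-3) was at 72.3, 51.2, 66.3 and 54.3 CPM and then at 86.3, 103, 81.1 and 70.5 CPM (0.48, 0.11 to 0.85; adjusted p = 0.372), far under the 287 ± 51.9 CPM of 12-week controls. It had passed the test from 6 to 9 weeks (0.94, adjusted p = 0.0163), as had the progenitor signal Shh (0.99, adjusted p = 0.0331). Shh was at 22.1, 16, 11.7 and 12.8 CPM and then at 20.6, 24.3, 28.8 and 18.7 CPM, and the ages overlapped. The endocytic adaptor Dab2 stood at 287 to 385 CPM and 369 to 524 CPM (0.39, 0.18 to 0.61), and the channel Kcnk3 at 2060 to 2250 CPM and 2320 to 2730 CPM. Aldosterone synthase (Cyp11b2) was at 57.5, 40.9, 189 and 53.2 CPM and then at 89.5, 96.1, 83.2 and 97.7 CPM. Its 9-week group holds a single high gland, replicate 3, and its log2 fold change was 0.11 (-0.62 to 0.83).

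Wnt targets differed by small amounts: 12 of 13 lay above 0, with a median of 0.29. At an unadjusted p under 0.05, 2 were higher (0 without both libraries that stood apart), against 6.07% of all genes. These were the Wnt inhibitor Nkd1 (21.1 to 33.3 CPM and 30.7 to 41 CPM; 0.43, 0.11 to 0.76) and Dkk3, a Dickkopf family member (17.3 to 23.6 and 23.9 to 30.6 CPM; 0.40, 0.11 to 0.70). Axin2, a direct target of beta-catenin, was at 61.6, 48.2, 49.1 and 52.4 CPM and then at 47.2, 53.6, 62.7 and 62.7 CPM (0.10, -0.18 to 0.38). The transcription factor Lef1 (0.29, -0.15 to 0.74), the R-spondin receptor Lgr5 (0.14, -0.39 to 0.66) and Rnf43, the paralog of Znrf3 (0.41, -0.54 to 1.35), had intervals that included 0. Lgr5 was at 2.28 to 4.41 CPM in 12-week cKO glands against 27.4 ± 2.79 CPM in controls.

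X-zone genes had lower values at 12 weeks in 5 of 5, with a median of -0.83. At an unadjusted p under 0.05, 1 was lower, against 3.97% of all genes. Pik3c2g, a lipid kinase that marks this zone, was at 27.6, 49.6, 14.2 and 45.6 CPM and then at 5.54, 14.5, 8.29 and 6.19 CPM. The lowest 9-week gland lay just below the highest 12-week gland (-1.99, -3.00 to -0.99; adjusted p = 0.225). Pik3c2g had passed the test upward from 6 to 9 weeks, from a mean of 4.81 CPM (2.84, adjusted p = 0.0103). Akr1c18, the progesterone-degrading 20-alpha-hydroxysteroid dehydrogenase of the X-zone, was at 75.2, 165, 373 and 165 CPM and then at 133, 134, 29.4 and 10.3 CPM. It spread widely within both ages (-1.34, -2.79 to 0.10), after passing the test upward from 6 to 9 weeks (3.32, adjusted p = 0.028). For Pik3c2g and Akr1c18 the earlier and the later difference share the 9-week glands, so they are not independent. Controls held 977 ± 423 and 1510 ± 1010 CPM of Akr1c18.

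**Figure D4:**
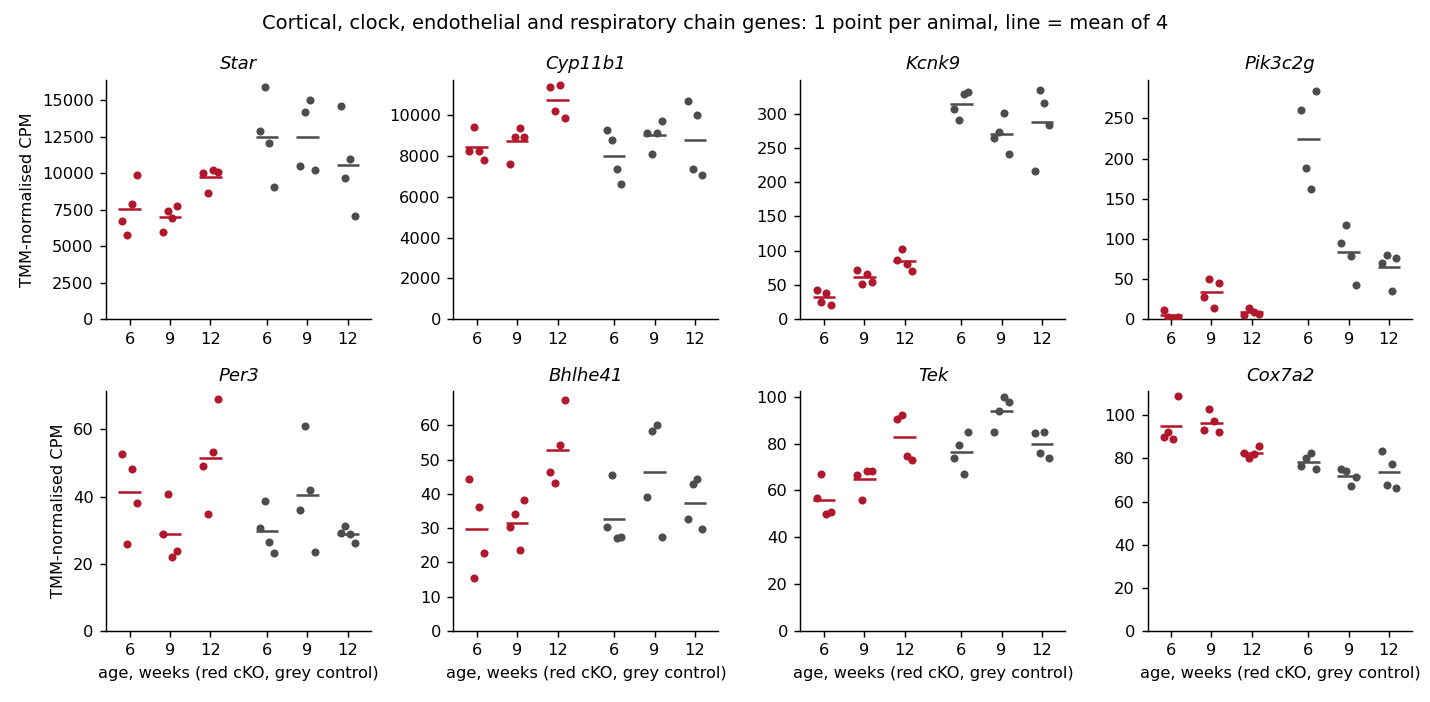
TMM-normalised CPM from 0 for 8 genes by age in weeks; each point is 1 animal, red for cKO and grey for control, and lines are means of 4. Star and Tek in the cKO are higher at 12 weeks with no overlap between 9 and 12 weeks, Cox7a2 is lower with no overlap, and Pik3c2g in the cKO is highest in 9-week glands.

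Circadian clock genes had higher values at 12 weeks in the cKO. The clock is a loop in which CLOCK and BMAL1 bind E-box elements (CACGTG) and drive Per and Cry repressors, and in which the PAR bZIP factors Tef, Hlf and Dbp bind D-box elements (TTANGTAA). Of 16 genes 12 lay above 0 (median 0.44) and 7 had an unadjusted p under 0.05, all higher, against 6.07% of all genes; without replicate 4 at 12 weeks 3 did, and without both libraries that stood apart 5 did. In 4 of 16 the ages did not overlap, against 2.76% of all genes. In controls the median was -0.19, and the difference between genotypes was higher at an unadjusted p under 0.05 for 7 of 16, against 4.70% of all genes. Clock transcripts follow the hour of the day, and the sources used here do not give the hour of collection, so hour and age cannot be told apart.

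Per3, a period family repressor, was at 28.8, 40.8, 21.9 and 23.9 CPM and then at 49, 34.7, 53.2 and 69 CPM (0.84, 0.30 to 1.38; adjusted p = 0.322). The 12-week gland with the lowest value lay within the 9-week range. Bhlhe41, a repressor that binds E-boxes, was at 30.2, 34.1, 23.5 and 38.1 CPM and then at 46.5, 43.2, 54.1 and 67.3 CPM, with no overlap (0.75, 0.17 to 1.32; adjusted p = 0.372). Tef stood at 117 to 167 CPM and 160 to 250 CPM (0.53, 0.15 to 0.92) and Hlf at 2.28 to 5.88 and 6.05 to 7.35 CPM (0.67, 0.21 to 1.13). The differences between genotypes were 1.33 for Per3 (0.57 to 2.09; adjusted p = 0.319), 0.96 for Tef (0.41 to 1.50) and 1.05 for Bhlhe41 (0.24 to 1.86). The 250 bases before the RefSeq start site (build GRCm38.p6) were searched on both strands for these 2 elements. TTANGTAA was in 1 of the 15 clock genes matched, Per3, and in 2.06% of 32851 promoters. CACGTG was in 5 of the 15 (Bhlhe41, Ciart, Cry1, Per1 and Tef) and in 6.02% of all promoters. A clock gene counted if any of its promoters held a match, while both percentages are over single promoters. The shares are therefore not like for like. The promoters of Per3 and Bhlhe41 are shown because each carries one of the elements, with the matches in capitals. Per3, on the minus strand of chromosome 4 at chr4:151044666-151044915, holds 2 matches that end 198 and 151 bases before the start site. Bhlhe41, on the minus strand at chr6:145865421-145865670, holds 1 that ends 148 bases before it. A match describes these letters and shows no binding.
Per3: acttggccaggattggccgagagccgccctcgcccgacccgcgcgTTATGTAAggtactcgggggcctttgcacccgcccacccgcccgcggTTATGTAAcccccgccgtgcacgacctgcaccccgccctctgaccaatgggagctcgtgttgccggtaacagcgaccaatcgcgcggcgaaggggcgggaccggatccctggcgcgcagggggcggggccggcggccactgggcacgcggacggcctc
Bhlhe41: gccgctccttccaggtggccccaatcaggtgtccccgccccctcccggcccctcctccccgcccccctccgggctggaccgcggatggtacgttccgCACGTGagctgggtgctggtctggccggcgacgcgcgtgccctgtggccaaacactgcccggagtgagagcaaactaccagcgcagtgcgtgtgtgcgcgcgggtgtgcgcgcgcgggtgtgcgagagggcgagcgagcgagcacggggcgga

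Other genes tied to hormone or stress state were checked beside the clock. The glucocorticoid-induced Fkbp5 was at 19.6, 30.9, 24.3 and 25 CPM and then at 41.6, 28.8, 47.3 and 23.2 CPM, so only replicates 1 and 3 at 12 weeks lay above the 9-week glands (0.50, 0.05 to 0.95). Of 13 glucocorticoid-responsive genes 2 were higher and 1 lower at an unadjusted p under 0.05 (1 and 0 without both libraries that stood apart). Over all genes the shares were 6.07% higher and 3.97% lower. Immediate early genes, which respond to handling within minutes, had a median of -0.10 in the cKO and 1.33 in controls, where 13 of 17 were higher at an unadjusted p under 0.05, against 4.22% of all genes there. The control values rested on replicate 1 at 12 weeks, in which the list summed to 4250 CPM, against 1150 to 1710 CPM in the other 12-week and 1030 to 1330 CPM in the 9-week controls. Without it the control median was 0.21 and 1 of 17 was higher. Fos was at 2.64, 13.3, 2.68 and 2.09 CPM and then at 1.58, 2.91, 3.35 and 1.85 CPM in the cKO, and at 4.82 ± 4.48 and 38 ± 63 CPM in controls. The 2 members of that list with higher cKO values at an unadjusted p under 0.05 were the stress factor Atf3 (2.63 to 7.23 and 7.58 to 16 CPM) and Egr2 (0.536 to 1.38 and 1.9 to 2.31 CPM), a zinc finger factor also expressed in myeloid cells. Of 18 oxidative stress genes 2 were higher at an unadjusted p under 0.05, against 6.07% of all genes, and 1 was without replicate 3 at 9 weeks or replicate 2 or 3 at 12 weeks. They were heme oxygenase (Hmox1, 27.4 to 54.1 and 43.8 to 82.8 CPM) and the cystine transporter Slc7a11 (0.321 to 1.96 and 1.87 to 4.6 CPM). Pdia4, a disulfide isomerase of the endoplasmic reticulum, was lower without overlap, at 110 to 119 CPM and 97.4 to 104 CPM (-0.17, -0.26 to -0.08; adjusted p = 0.233 in edgeR and 0.041 in DESeq2).

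Respiratory chain genes had lower values by small amounts in 19 of 20. The list holds nuclear-encoded subunits of the complexes that make ATP in mitochondria. Its median was -0.12, 10 members had an unadjusted p under 0.05, all lower, against 3.97% of all genes, and in 7 the ages did not overlap, against 2.77%. Leaving out 1 gland at a time gave 4 (without replicate 2 at 9 weeks or replicate 4 at 12 weeks) to 9 such members, with 5 or 6 without replicate 1 or 3 at 9 weeks or replicate 1 at 12 weeks; leaving out both libraries that stood apart gave 5. In controls the median was 0.01 and 0 members were at an unadjusted p under 0.05. The difference between genotypes was lower for 4 of the 20 at that p, against 4.23% of all genes. That count was 1 without both libraries that stood apart and 0 without control replicate 1 at 12 weeks. Cox7a2, a subunit of cytochrome oxidase, was at 93.3, 103, 97.5 and 92.5 CPM and then at 82.5, 80.2, 81.9 and 85.8 CPM (-0.23, -0.37 to -0.08; adjusted p = 0.322). Sdhb of complex II was at 322, 319, 316 and 297 CPM and then at 277, 279, 257 and 286 CPM (-0.19, -0.32 to -0.06). Uqcrc2 (255 to 267 and 233 to 252 CPM) and Uqcrh (102 to 117 and 91.7 to 97.7 CPM) of complex III did not overlap either. The share of mitochondrially encoded reads, given above, overlapped between the ages.

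Endothelial genes had higher values in 12 of 13, with a median of 0.18. At an unadjusted p under 0.05, 7 were higher, against 6.07% of all genes; 4 were without replicate 2 at 9 weeks and 2 without both libraries that stood apart. The angiopoietin receptor Tek was at 66.7, 56, 68.4 and 68.2 CPM and then at 90.7, 92.3, 74.9 and 72.9 CPM, with no overlap (0.35, 0.15 to 0.56; adjusted p = 0.272). The VEGF receptor Kdr stood at 115 to 154 CPM and 155 to 182 CPM (0.31, 0.08 to 0.54), Flt1 at 80 to 101 and 90 to 120 CPM, Tie1 at 69 to 79 and 78.8 to 90.5 CPM, and the adhesion molecule Pecam1 at 88.4 to 108 and 102 to 111 CPM. In controls the list's median was -0.12, and the difference between genotypes was higher at an unadjusted p under 0.05 for 8 of 13, against 4.70% of all genes. That of Tek was 0.59 (0.29 to 0.88; adjusted p = 0.238) and that of Pecam1 0.24 (0.06 to 0.42; adjusted p = 0.424). Tgfbr2, a TGF-beta receptor, was at 131 to 153 CPM and 154 to 186 CPM, without overlap (0.22, 0.07 to 0.36).

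Genes of fibroblasts and the capsule and of the collagen matrix had 0 members at an unadjusted p under 0.05 in 16 and 18 genes (medians 0.16 and 0.01). Col1a1 was at 68.2 to 73.1 CPM at 9 weeks and 44.7 to 97.4 CPM at 12 weeks (-0.07, -0.66 to 0.53), and the pericyte receptor Pdgfrb differed by 0.16 (-0.06 to 0.38). The adrenal medulla list also had 0 of 15 with all glands (median 0.16). Without both libraries that stood apart 4 of the 15 were lower, with a median of -0.3, against 3.2% of all genes. In that setting the difference between genotypes was also lower for 4 of the 15, against 4.07% of all genes. Chromogranin A (Chga) was at 175, 208, 86.6 and 204 CPM and then at 122, 318, 218 and 163 CPM, against 1790 ± 105 CPM in 12-week controls, and tyrosine hydroxylase (Th) differed by -0.02 (-0.59 to 0.55). The glycosyltransferase Mgat4c spread over 198 to 503 CPM and 192 to 317 CPM (-0.52, -1.36 to 0.32).

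Cell cycle genes had 1 of 24 lower at an unadjusted p under 0.05, against 3.97% of all genes, and a median of -0.10. The 1 gene was the replicative helicase subunit Mcm3 (29.8 to 44.9 and 23.5 to 34.7 CPM). From 6 to 9 weeks edgeR's test called 12 of the same 24 lower in the main fit, against 0.955% of all genes, with a median of -1.18. Mcm3 was among them (-0.57, adjusted p = 0.026). These calls were not checked with a gland left out. The proliferation marker Mki67 was at 30.1, 15.9, 26 and 9.25 CPM and then at 7.47, 14.8, 33.4 and 20 CPM, so both ages spread over the same range. The CDK inhibitors Cdkn1a (-0.14, -0.57 to 0.29) and Cdkn2a (0.05, -0.38 to 0.49) overlapped between ages. In controls Cdkn1a had higher values at 12 weeks, from 24.6 ± 3.8 to 36.3 ± 3.41 CPM, and the difference between genotypes was -0.70 (-1.31 to -0.10; adjusted p = 0.48). Senescence-associated secretory genes had 3 higher (Spp1, Mmp12 and Il1a) and 1 lower (Csf1) of 20 at an unadjusted p under 0.05, all described above. Over all genes the shares were 6.07% higher and 3.97% lower. Without both libraries that stood apart both list counts were 0.

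Markers of blood and of neighbouring tissue were looked at as well. Whether they vary together with the immune and lipid genes was not tested. All 6 erythrocyte genes lay above 0 (median 0.85, control 0.77): Alas2, of heme synthesis in red cells, was at 1 to 3.16 CPM and 3.25 to 5.44 CPM, and the globin Hbb-bs at 20.4 to 59.9 and 53.2 to 87.6 CPM. The summed erythrocyte list was at 44.9 to 139 CPM and 118 to 191 CPM. Neutrophil genes summed to 4.02 to 9.39 CPM and 5.78 to 23.1 CPM, with 3 of 8 higher at an unadjusted p under 0.05, against 6.07% of all genes. The 23.1 CPM was in replicate 2, the other 12-week glands were at 5.78, 9.46 and 8.83 CPM, and without replicate 2 the count was 0 of 8. In controls 3 of the 8 were also higher, against 4.22% of all genes there. Mast cell genes had 1 of 7 lower at an unadjusted p under 0.05, against 3.97% of all genes. It was the receptor Kit (25.1 to 39.3 and 14.9 to 30.9 CPM), which other cells also express. The 11 liver genes tested had a median of 2.92, and Alb (3.56) and hemopexin (Hpx, 2.92) went to -0.85 and -0.93 without replicate 2 at 12 weeks. Kidney genes summed to 0.118 CPM or less in all 8 glands. The part of these tissues in the other results was not tested.

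The amino acid transporter Slc38a1, chosen after its values were seen, had a value that rested on 1 gland. It was at 10.3, 9.03, 36.1 and 11.2 CPM at 9 weeks and at 29.5, 31.5, 41.3 and 18.5 CPM at 12 weeks, where replicate 3 at 9 weeks alone reached the 12-week values. With all 8 glands the log2 fold change was 0.86 (0.22 to 1.50; adjusted p = 0.361 in edgeR). Without that gland it was 1.57, with an adjusted p of 0.00161, the one gene called in that setting.

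**Figure D5:**
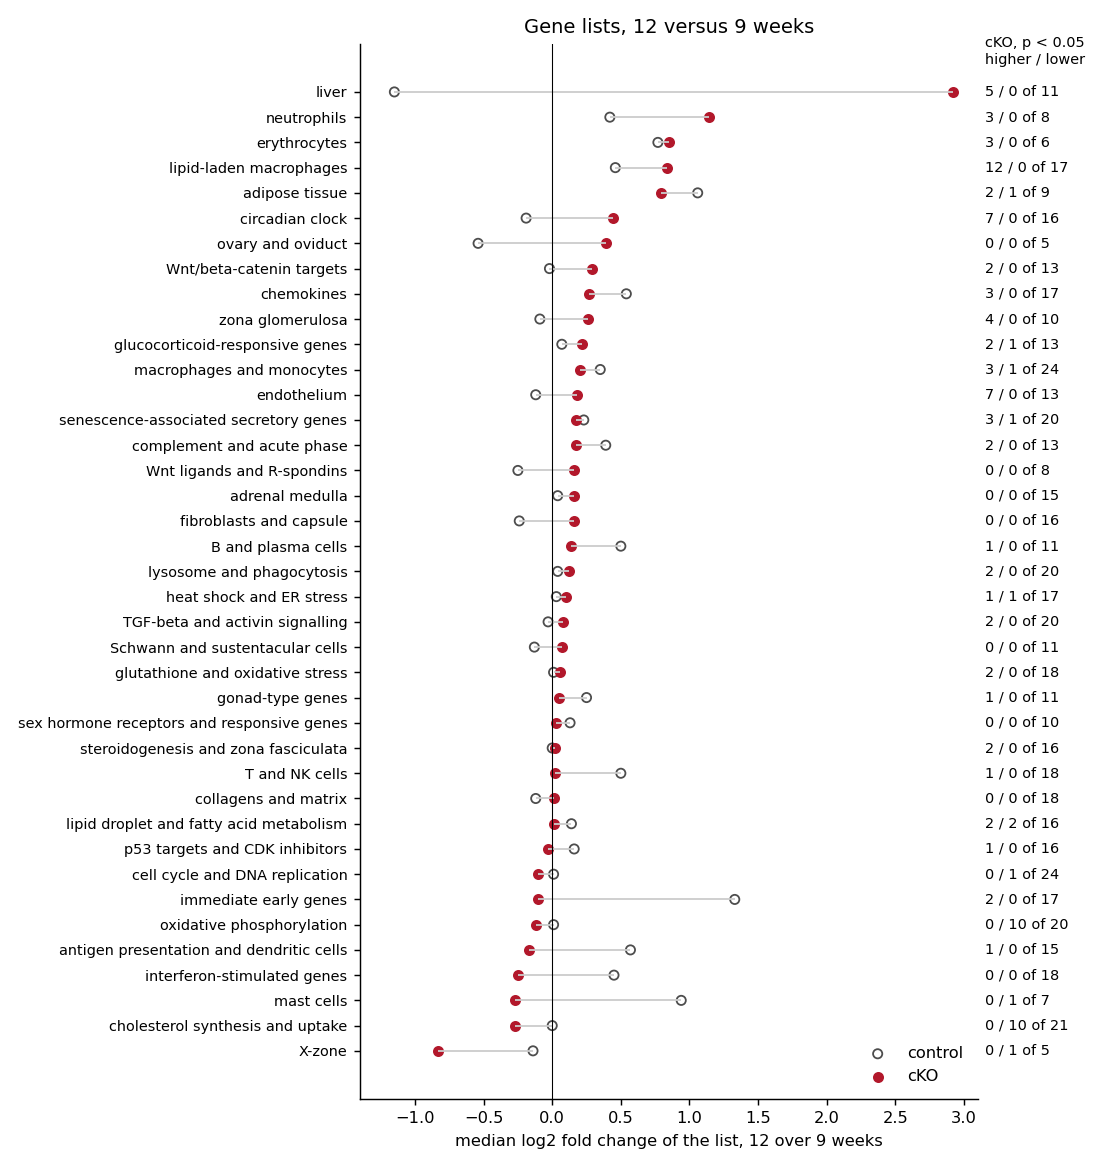
Median log2 fold change of 12 over 9 weeks for each gene list with at least 5 genes tested, filled red for cKO and open grey for control; the column at the right counts cKO members at an unadjusted p under 0.05, higher and lower, of those tested. Lipid-laden macrophages (12 of 17 higher), cholesterol synthesis and respiratory chain (10 lower each) hold the highest counts.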

How the data were processed

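RNA from whole adrenal glands was selected for poly(A) and made into strand-directional libraries, per the labels' protocols. The deposited values are raw whole-number counts per gene for 24 female libraries, 1 column each. The submitters' processing notes name GRCm38 and the tools featureCounts, DESeq2 1.30.1, RSEM 1.6.3, STAR 2.7.6a and cutadapt 1.16, without saying which made the counts or how reads of near-identical genes were split. Of 55487 identifiers 55141 matched a symbol.

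The fit used edgeR 4.0.16 in R 4.3.3. After filterByExpr (minimum count 10) 18645 genes remained, libraries were scaled by TMM, and all 24 libraries in 6 groups entered 1 fit (common biological coefficient of variation 0.179). Contrasts were tested with edgeR's quasi-likelihood F test, and p-values were adjusted by Benjamini-Hochberg over all genes tested, at 0.05. Standard errors and 95% intervals were derived from each log2 fold change and its F value and are approximate. The difference between genotypes is the cKO log2 fold change minus the control one, in the same fit. "Did not overlap" means that all 4 glands of one age lay beyond all 4 of the other. The fit was tested on simulated data.

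Gene lists (41, with 607 of 610 entries in the table) and the genes looked at were chosen with earlier results of these data known, so no list is independent evidence, and lists are described by counts and medians. Beside 27 preset genes, the text names the 12 genes with the smallest p and up to 4 per list with the smallest p, leaving some out. Alternatives were DESeq2 1.42.0, relative log expression scaling, no filter, a filter of CPM 5 in 4 libraries, only the groups compared, a replicate block and each gland left out; leaving out both libraries that stood apart was chosen after seeing the data. No pair of libraries was a duplicate: chi-square per degree of freedom between glands of an age was 28.1 to 49.5. Male tables were not used here, and 1 gene that the rule allows is not reported here. Promoter sequences are from RefSeq.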

Additional observations from a re-analysis of the deposited data

Results flagged for a closer look

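Within each age of the cKO, 93 genes were checked for a gland far from its nearest neighbour. A gland was flagged when that gap took more of the range of the 4 values than Dixon's 95% criterion allows. Chance gives about 1 in 20 for independent genes that were not picked. These genes share the same animals and many were picked by their p, so that rate is no yardstick here. Of 186 gene and age combinations 16 met the criterion. Of these, 6 came from replicate 2 at 12 weeks. In that gland Alb (293 CPM), Hpx (12.7 CPM), Ucp1 (6.13 CPM), C77080 (29.1 CPM) and the clock factor Hlf (7.35 CPM) were above the other glands of the age, and Star (8610 CPM) was below them. Another 6 came from replicate 3 at 9 weeks. There the immune genes Spp1 (6.08 CPM), Itgax (4.93 CPM), Il7r (1.39 CPM) and Ccl6 (5.14 CPM) were below the other glands, and Cyp11b2 (189 CPM) and Slc38a1 (36.1 CPM) were above them. Replicate 1 at 12 weeks was low for Ccl9 (3.7 CPM) and Egr2 (1.9 CPM). Replicate 2 at 9 weeks was low for Tek (56 CPM) and high for Fos (13.3 CPM).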

How the results depend on the processing

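The count of genes called between 12 and 9 weeks in the cKO stayed at 0 under relative log expression scaling, both other filters, the fit of the groups compared and the replicate block, was 64 with DESeq2, ranged from 0 to 1 with a gland left out, and was 1 with replicate 3 at 9 weeks and replicate 2 at 12 weeks both left out. For controls it was 2 without a filter, 31 with DESeq2 and 0 to 2 with a gland left out; for the difference between genotypes, 59 with DESeq2 and 0 to 2. For cKO 9 against 6 weeks it was 20 with the groups compared alone, where fewer samples set the spread, 718 with DESeq2, 57 to 331 with a gland left out and 231 with the replicate block. Deviations of same-numbered glands of 9 and 12 weeks correlated at -0.22, 0.19, 0.05 and 0.14. With the 9-week glands of other numbers, the 12-week glands correlated at -0.06 to 0.28, -0.21 to 0.12, -0.11 to 0.07 and -0.09 to 0.02. The same-numbered value was the highest for replicates 2 and 4 only, and whether replicate numbers pair the glands was not tested. The block called 0 genes, as did the fit without it. With a gland left out, members at an unadjusted p under 0.05 ranged from 4 to 8 for endothelium, 2 to 4 for zona glomerulosa, 2 to 13 for lipid-laden macrophages, 6 to 11 for cholesterol synthesis, 3 to 8 for the clock and 4 to 9 for the respiratory chain. With both libraries that stood apart left out, they were 2 for endothelium, 2 for zona glomerulosa, 0 for lipid-laden macrophages, 4 for cholesterol synthesis and 5 for the respiratory chain. Of 1385 values of single genes under alternatives, 1331 kept their direction and side of the threshold, 15 passed it and 39, in 13 genes, changed sign. Since no gene passed in the main test, keeping its side means only staying uncalled. Many of these genes were also picked by their p in these data, so the 1331 is no measure of robustness. The sign changed with a gland left out for Alb (-0.85 to 4.33), Hpx (-0.93 to 3.33), Ucp1 (-0.71 to 4.49), Chga (-0.01 to 0.47), Th (-0.33 to 0.14), Cyp11b2 (-0.12 to 0.86), Cdkn2a (-0.11 to 0.24), Col1a1 (-0.29 to 0.09), Cyp11a1 (-0.09 to 0.08), Lgr5 (-0.04 to 0.29), Mki67 (-0.52 to 0.16), Nr5a1 (-0.08 to 0.02) and Znrf3 (-0.06 to 0.08). With both libraries left out, Alb went to -1.26, Hpx to -1.29, Ucp1 to -0.03, Chga to -0.22, Lgr5 to -0.17, Mki67 to 0.14 and Nr5a1 to 0.01, and Cyp11a1 went to 0 with the groups compared alone. The cause of these differences was not tested. With 4 glands an age, the median standard error of 0.147 limits what this comparison can show.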

Other observations

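Among gene lists not described above, Wnt ligands and R-spondins had 0 of 8 members at an unadjusted p under 0.05 (median 0.16), Schwann and sustentacular cells 0 of 11 (0.07), sex hormone receptors and their targets 0 of 10 (0.03), skeletal muscle 0 of 4 (0.14) and ovary and oviduct 0 of 5 (0.39). Gonad-type genes had 1 of 11 higher (0.05), p53 targets and CDK inhibitors 1 of 16 higher (-0.03), lysosome and phagocytosis genes 2 of 20 higher (0.12), complement and acute phase genes 2 of 13 higher (0.17) and TGF-beta and activin signalling genes 2 of 20 higher (0.08), where 6.07% of all genes were higher. Without both libraries that stood apart, 0 gonad-type, 0 p53 and 0 complement genes were higher. In that setting 2 lysosome and 1 TGF-beta genes were higher, against 3.89% of all genes. The p53 list had 5 of 16 higher in controls (median 0.16), against 4.22% of all genes there. The difference between genotypes was lower for 2 of its members at an unadjusted p under 0.05, against 4.23% of all genes. Without both libraries that stood apart that count was 4 of 16.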
